A study of Mus musculus with 13 samples.

Results

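The loss of c-Rel was followed in regulatory T cells (Tregs) of the mouse spleen by RNA sequencing of sorted cells. The comparison takes 4 of the 13 libraries of the study, chosen by their titles: 2 wild-type and 2 c-Rel knockout libraries of splenic Tregs, labelled tTreg cells. Wild-type cells carried the genotype cRel+/+Foxp3rfp and knockout cells cRel-/-Foxp3rfp, both on C57BL6/J, so every library came from mice with a red fluorescent reporter at Foxp3, also the controls. CD4 T cells were enriched with magnetic beads and sorted by flow cytometry, and the sex and age of the mice are not given in the labels. The genotype label names no Cre driver or cell type for the deletion, so cells other than Tregs may lack c-Rel too. A further 4 libraries, 2 wild-type and 2 knockout, of de novo Tregs from the thymus of mice with the same genotypes serve for comparison. No label says that the 2 libraries of a group come from separate animals, and the p-values therefore reflect no more than the spread between these libraries, which may be technical.

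c-Rel, encoded by Rel, is a subunit of NF-kB, the family of transcription factors that antigen receptor and costimulatory signals bring into the nucleus, where dimers bind short GC-rich kB sites. In lymphocytes c-Rel is known for driving survival and division genes after antigen receptor signals, and in the thymus it helps start Foxp3, the transcription factor that defines the Treg lineage. In peripheral tissues Tregs hold immune responses in check, and a share of them divides and takes on an activated, effector state.

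The splenic libraries held 32291272 to 35114430 counts over 22048 protein-coding genes, of which 12264 passed the count filter. Levels are given in CPM (counts scaled to the normalized size of each library), and 3 counts corresponded to 0.0853 to 0.0932 CPM. The defining Treg markers were present in all 4 libraries: Cd3e at 987 to 1065 CPM, Cd4 at 693 to 803, Foxp3 at 660 to 893 and Ikzf2 at 231 to 291. The knockout libraries differed more from each other than the wild-type libraries did, with a chi-square per degree of freedom over all genes of 41.3 against 9.06. Knockout library 1 held the most B cell RNA (Ms4a1, the B cell antigen CD20, at 5.23 CPM, against 0.03 in knockout library 2 and 0.36 and 0.81 in wild type). Knockout library 2 held the least myeloid RNA, with Csf1r at 0 CPM. Y-linked transcripts were read in all 4 libraries and were lower in knockout library 1, where Ddx3y stood at 20.6 CPM against 45.1 to 54.4 in the others.

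Rel itself was not called, although both knockout libraries lay below both wild-type libraries. Its gene, at chr11:23736847-23770970 of GRCm38, was read at 45.6 and 54.8 CPM in wild type and at 42.0 and 44.6 CPM in the knockout; the fitted log2 fold change, knockout over wild type, was −0.21 (SE 0.13, adjusted p = 0.521). Counts summed over a whole gene do not show whether part of it is deleted, so this level is no check of the genotype. Within 10 Mb on either side of Rel, 0 of 75 genes tested were called, beside a called share of 1.37% over all genes tested.

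At an adjusted p under 0.05, the threshold for a call here, 168 genes differed between the genotypes, or 1.37% of the genes tested. Of these, 75 were higher in the knockout (0.612%) and 93 were lower (0.758%). These shares are the background for the called genes counted in each list below. A change of at least 2-fold was reached by 44 of the higher and 66 of the lower genes. The median log2 fold change over all genes tested was 0.00. All 168 called genes had groups whose libraries did not overlap, as did 46.4% of all genes tested. Leaving out 1 library at a time gave 278 calls without wild-type library 1, 220 without wild-type library 2, 2508 without knockout library 1 and 1548 without knockout library 2. With a single knockout library the spread comes from the wild-type pair alone, which was the closer pair. Of the 168 genes, 113 were called in each of these 4 fits, and none changed sign.

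**Figure D1:**
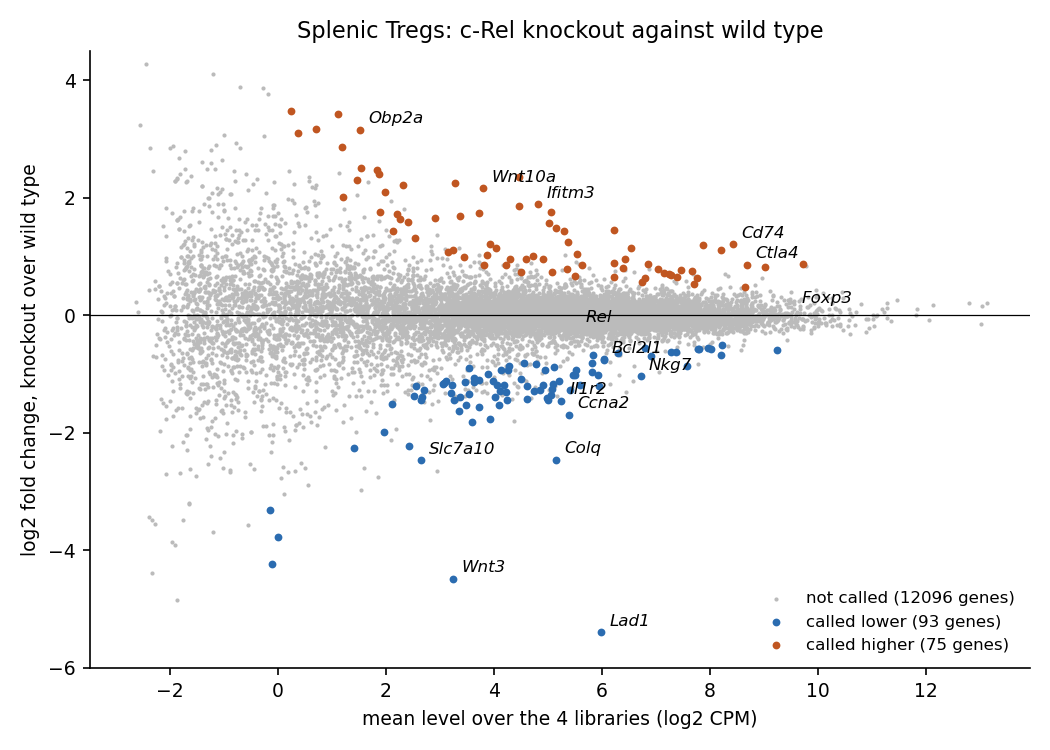
Log2 fold change of knockout over wild type in splenic Tregs (vertical axis) against the mean level over the 4 libraries (horizontal axis, log2 CPM), 1 point per gene. The 93 called lower genes are blue and the 75 called higher genes orange; Lad1 and Wnt3 lie far below the rest at their level, and 16 genes, 3 of them called, lie outside the vertical axis.

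Among called genes that averaged 5 CPM or more in the higher group, those that fell furthest encoded different kinds of protein. Below that level Mpo, Hist1h4m and Pkd1l1 had lower fitted values, with 0 or 1 counts in each knockout library. Lad1, which encodes ladinin 1, a protein of epithelial basement membranes, stood at 130.6 and 117 CPM in wild type and at 4.27 and 1.55 CPM in the knockout. Its log2 fold change was −5.39 (SE 0.35, adjusted p = 0.00175), a 42.1-fold lower level. Every knockout library was thus far below every wild-type library for this gene, which lies at chr1:135818598-135833342 of GRCm38.

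Wnt3, a secreted Wnt ligand, was read at 17.1 and 19.1 CPM in wild type and at 0.654 and 0.963 CPM in the knockout (log2 fold change −4.48, SE 0.24, adjusted p = 0.000885). Colq, the collagen tail that anchors acetylcholinesterase, fell from 63.8 and 56.8 CPM to 10.3 and 11.7 CPM (−2.46, SE 0.14, adjusted p = 0.000885). Slc7a10, a transporter of small neutral amino acids, fell from 10.04 and 11.07 CPM to 1.96 and 1.86 CPM (−2.46, SE 0.22, adjusted p = 0.00469). In each of these genes the 2 knockout libraries lay close together and well apart from wild type.

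Other genes with large falls encode proteins of immune cells. Ncf1, the p47phox organizer subunit of the phagocyte NADPH oxidase, stood at 22.5 and 24.7 CPM in wild type and 8.22 and 5.68 CPM in the knockout (−1.76, SE 0.20, adjusted p = 0.0140). Ccr9, a chemokine receptor for homing to the gut and thymus, fell from 22.0 and 15.7 CPM to 6.2 and 4.44 CPM (−1.82, SE 0.23, adjusted p = 0.0196). Il1r2, the decoy receptor for interleukin 1, fell from 54.6 and 56.1 CPM to 21.5 and 18.9 CPM (−1.45, SE 0.13, adjusted p = 0.00424). The genotypes did not overlap in any of them, which was a condition for naming them among the largest falls.

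F13a1 and Lilrb4a, both also expressed by monocytes and macrophages, fell by 2.22 and 1.99 on the log2 scale (SE 0.41 and 0.32; adjusted p = 0.0490 and 0.0356). Markers of myeloid cells moved with them. Of the 21 tested markers of myeloid and dendritic cells, 18 were below 0, 1 was called (Mpo) and the median was −1.24. Added up, all markers of this list came to 238 and 293 CPM in wild type and to 206 and 176 CPM in the knockout. Most of each sum was Cst3 and Cybb, which changed little. Cst3 stood at 138 and 137 CPM in wild type and 122 and 132 CPM in the knockout. Cybb stood at 31.0 and 38.4 CPM in wild type and 34.5 and 35.1 CPM in the knockout. The markers called lower numbered 7 and 4 without wild-type library 1 and 2, and 15 and 5 without knockout library 1 and 2. Csf1r stood at 13.01 and 13.77 CPM in wild type and at 4.21 and 0 CPM in the knockout, and Lyz2 at 18.6, 46.1, 17.1 and 1.30 CPM in the same order. Mpo, the peroxidase of neutrophil granules, was read at 1.41 and 6.39 CPM in wild type and at 0 in both knockout libraries. Against a floor of 3 counts per library, that is at least 43.7-fold below the wild-type mean, which rests mostly on wild-type library 2. The part of these markers in the falls of F13a1 and Lilrb4a was not tested, and in bulk RNA fewer cells of a type and less RNA per cell cannot be told apart.

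**Figure D2:**
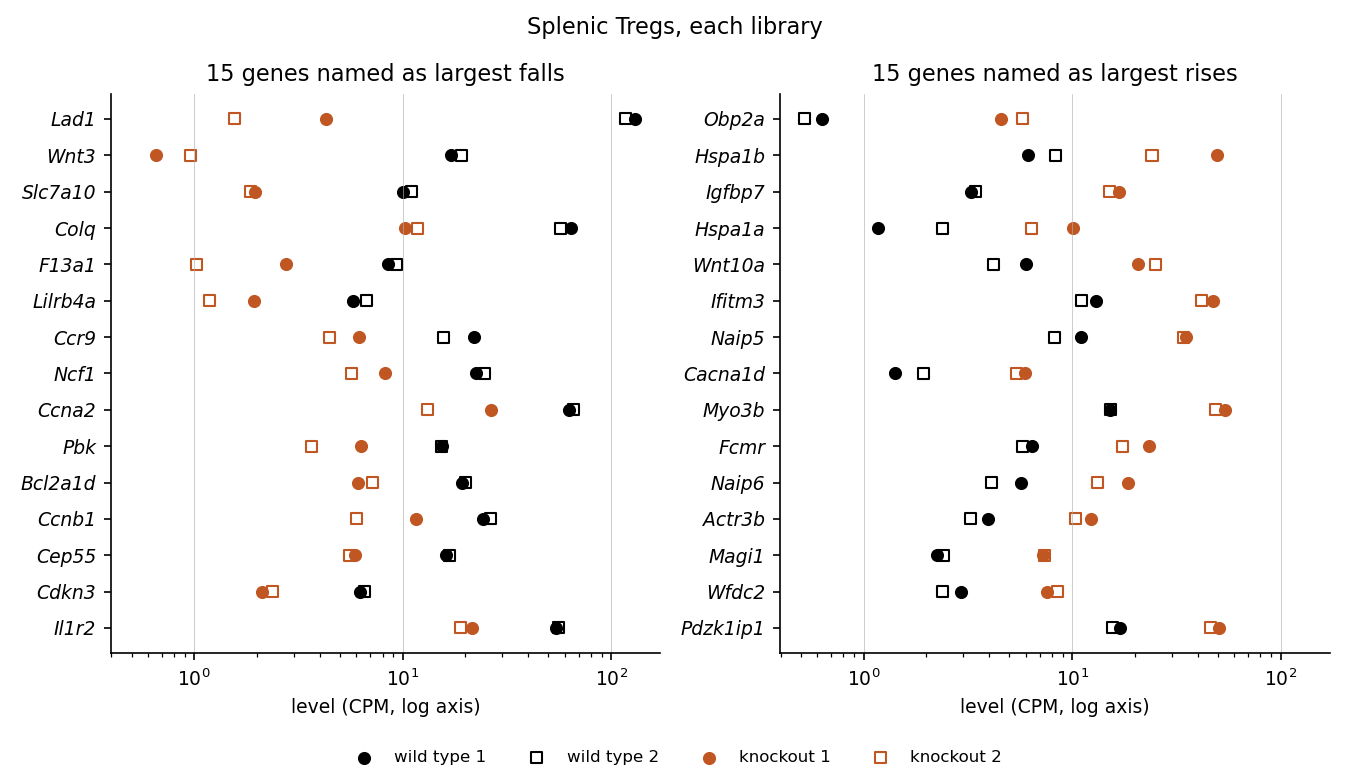
Level in each splenic library (horizontal axis, CPM, log scale) of the 15 genes named as largest falls (left) and the 15 named as largest rises (right), all averaging 5 CPM or more in the higher group; black symbols are wild-type and orange symbols knockout libraries, circles library 1 and squares library 2. Both knockout libraries lie on the same side of both wild-type libraries for every gene, because absence of overlap was a condition for naming them.

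The promoters of the genes that fell or rose were searched for a kB motif (3 G, any 3 bases, then 2 T and 2 C) on both strands of the 250 bases before the transcription start in the RefSeq table for GRCm38.p6. Of the 93 genes that fell, 72 had a promoter in that table, and 5 of them (6.94%) held the motif. Among the 75 that rose, 5 of 49 held it (10.2%). So did 6.28% of the 9376 tested genes with a promoter and 5.31% of all 27025 genes with one. Of the 27 genes with a promoter that fell in both splenic and de novo Tregs, 3 held it. A gene with several start sites counted if any window held the motif. A match describes letters in this window and does not show a bound site. The sequences below show the motif in the 3 genes that fell in both splenic and de novo Tregs (Slc7a10, Sdc4 and Bcl2l1) and in 1 of the 5 that rose (Ifitm3). Cdkn3 and Ndc80, the other genes that fell with a motif, are not shown. The windows of Lad1 and Wnt3, the genes with the furthest falls at 5 CPM or more, are given because these letters did not occur in them. Each is printed 5′ to 3′ on the strand of its gene, with the motif in capitals; in Bcl2l1 and Ifitm3 it lies on the opposite strand and reads as the reverse complement.

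Slc7a10 (chr7:35186135-35186384, plus strand): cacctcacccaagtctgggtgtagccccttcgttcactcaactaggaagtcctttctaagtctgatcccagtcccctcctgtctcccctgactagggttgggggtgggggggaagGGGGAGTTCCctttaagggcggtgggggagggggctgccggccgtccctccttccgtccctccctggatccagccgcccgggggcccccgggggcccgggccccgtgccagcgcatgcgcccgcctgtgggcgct

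Sdc4 (chr2:164443189-164443438, minus strand): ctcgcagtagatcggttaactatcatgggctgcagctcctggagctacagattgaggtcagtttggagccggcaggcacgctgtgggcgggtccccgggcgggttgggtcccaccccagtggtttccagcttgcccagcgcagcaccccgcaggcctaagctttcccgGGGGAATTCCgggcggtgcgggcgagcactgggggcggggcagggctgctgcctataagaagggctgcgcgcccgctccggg

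Bcl2l1 (chr2:152830718-152830967, minus strand; 1 of 3 RefSeq start sites): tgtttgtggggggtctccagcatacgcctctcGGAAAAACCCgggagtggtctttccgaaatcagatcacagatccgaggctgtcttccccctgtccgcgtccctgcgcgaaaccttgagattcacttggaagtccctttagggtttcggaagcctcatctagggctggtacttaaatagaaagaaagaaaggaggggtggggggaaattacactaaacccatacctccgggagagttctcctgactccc

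Ifitm3 (chr7:141010745-141010994, minus strand): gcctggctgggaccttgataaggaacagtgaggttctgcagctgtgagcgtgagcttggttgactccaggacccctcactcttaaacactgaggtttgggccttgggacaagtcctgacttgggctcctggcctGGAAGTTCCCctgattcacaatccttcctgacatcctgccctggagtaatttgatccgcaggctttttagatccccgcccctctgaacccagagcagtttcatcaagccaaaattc

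Lad1 (chr1:135818348-135818597, plus strand): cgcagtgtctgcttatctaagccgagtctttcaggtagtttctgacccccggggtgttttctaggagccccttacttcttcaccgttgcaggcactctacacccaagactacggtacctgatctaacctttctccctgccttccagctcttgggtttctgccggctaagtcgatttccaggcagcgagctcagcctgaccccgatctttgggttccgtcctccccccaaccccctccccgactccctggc

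Wnt3 (chr11:103773925-103774174, plus strand): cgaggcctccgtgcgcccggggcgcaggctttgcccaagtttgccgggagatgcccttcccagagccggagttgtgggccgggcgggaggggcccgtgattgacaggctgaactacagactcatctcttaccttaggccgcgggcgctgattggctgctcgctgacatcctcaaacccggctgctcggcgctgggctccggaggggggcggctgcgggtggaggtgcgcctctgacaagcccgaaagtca

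Counted from the transcription start, the motif lay at −135 to −126 in Slc7a10, −82 to −73 in Sdc4, −218 to −209 in Bcl2l1 and −116 to −107 in Ifitm3. Sdc4, a heparan sulfate proteoglycan chosen for display after its values were seen, fell from 15.95 and 17.52 CPM to 7.71 and 5.47 CPM (−1.34, SE 0.20, adjusted p = 0.0312).

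Subunits and regulators of NF-kB held no call. Among 28 tested, edgeR called 0, while DESeq2 called 4 and limma-voom 1, all higher; 7 had an unadjusted p under 0.05, and the median log2 fold change was 0.13, with 23 above 0. Without knockout library 1, 9 were called higher and 2 lower, and without knockout library 2, 7 were called higher. Nfkb1, the p50 subunit, stood at 166 and 173 CPM in wild type and 158 and 195 CPM in the knockout. Rela stood at 308 and 295 CPM and at 311 and 294 CPM. The libraries of the genotypes overlapped for both. Relb stood at 157 and 165 CPM in wild type and 207 and 241 CPM in the knockout (0.47, SE 0.11, adjusted p = 0.0868). Tnfaip3, the deubiquitinase A20 that restrains NF-kB, stood at 138 and 131 CPM and at 210 and 184 CPM (0.55, SE 0.11, adjusted p = 0.0563), with no overlap between the genotypes.

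Of 37 known NF-kB target genes of lymphocytes, 3 fell and 1 rose, beside 0.758% and 0.612% of all genes, and the median was 0.09. The fallers were Bcl2a1d and Bcl2l1, which encode the survival proteins A1 and Bcl-xL, and Cd83, an activation marker. Bcl2a1d stood at 19.2 and 20.0 CPM in wild type and 6.11 and 7.18 CPM in the knockout (−1.56, SE 0.16, adjusted p = 0.0118). It belongs to a family of near-identical copies whose reads the counting could split, so its value is uncertain. Bcl2l1 fell from 76.9 and 86.9 CPM to 51.0 and 46.4 CPM (−0.75, SE 0.12, adjusted p = 0.0350), and without wild-type library 2 its adjusted p was 0.147. Cd83 fell from 345 and 354 CPM to 243 and 249 CPM (−0.51, SE 0.09, adjusted p = 0.0438), with 0.263 and 0.351 without wild-type library 1 and 2. Without knockout library 1 the list held 10 called higher and 9 lower, and without knockout library 2 it held 7 and 8.

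Bcl2, the third survival gene called, went the other way. It stood at 373 and 374 CPM in wild type and at 604 and 722 CPM in the knockout (0.83, SE 0.11, adjusted p = 0.0196). Mcl1 stood at 600 and 573 CPM and at 625 and 541 CPM, with overlapping genotypes. Of 13 anti-apoptotic genes 1 rose and 2 fell, with a median of −0.01, and of 19 pro-apoptotic genes 0 were called by edgeR (4 at an unadjusted p under 0.05; 1 by DESeq2, 0 by limma-voom). Without knockout library 1 and 2 the pro-apoptotic calls numbered 3 higher and 3 lower, and 2 higher and 1 lower.

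Foxp3, Il2ra and Ikzf2, which identify the Treg lineage, were not called. Foxp3 stood at 740 and 701 CPM in wild type and 893 and 660 CPM in the knockout (0.11, SE 0.14, adjusted p = 0.795). Il2ra, the high-affinity interleukin 2 receptor chain, stood at 709 and 669 CPM and at 990 and 642 CPM (0.24, SE 0.18, adjusted p = 0.599). For both, the 2 knockout libraries lay on either side of wild type. Ikzf2 (Helios) stood at 244 and 231 CPM in wild type and at 241 and 291 CPM in the knockout, again with overlap.

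Within the Treg signature, 2 of 35 tested genes rose and 4 fell, beside 0.612% and 0.758% of all genes, with a median of 0.11. Ctla4, the inhibitory receptor that competes with CD28 for its ligands, rose from 322 and 266 CPM to 542 and 525 CPM (0.86, SE 0.11, adjusted p = 0.0196). Socs2, a feedback inhibitor of cytokine signals, rose from 83.9 and 80.3 CPM to 155 and 145 CPM (0.87, SE 0.10, adjusted p = 0.0169). Penk, which encodes proenkephalin, fell from 218 and 272 CPM to 137 and 132 CPM (−0.87, SE 0.12, adjusted p = 0.0295). Both rises and this fall were clear of overlap, and without wild-type library 2 the adjusted p of Penk was 0.0572.

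The other fallers of the signature were Cd83 (above), Ikzf4 and Swap70. Ikzf4 (Eos), a partner of Foxp3, fell from 317 and 305 CPM to 214 and 201 CPM (−0.58, SE 0.09, adjusted p = 0.0350). Swap70, a regulator of actin and Rac signals, fell from 195 and 206 CPM to 141 and 120 CPM (−0.62, SE 0.11, adjusted p = 0.0481). These are small changes, and without wild-type library 1 and 2 the adjusted p was 0.219 and 0.125 for Ikzf4 and 0.109 and 0.205 for Swap70. The signature then held 4 called higher and 1 lower without wild-type library 1, and 2 and 0 without wild-type library 2. Without knockout library 1 it held 12 called higher and 8 lower, and without knockout library 2 it held 16 and 9.

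Of 32 effector Treg genes, 3 fell and 1 rose, beside 0.758% and 0.612% of all genes, and the median was −0.08. Tnfrsf8 (CD30), a costimulatory receptor of activated lymphocytes, stood at 27.4 and 27.7 CPM in wild type and 11.04 and 9.195 CPM in the knockout (−1.44, SE 0.15, adjusted p = 0.0119). Nkg7, a protein of cytotoxic granules, stood at 139 and 143 CPM and at 64.1 and 74.0 CPM (−1.03, SE 0.11, adjusted p = 0.0130). Il1r2, given above, was the third. Nkg7 is also among the 13 tested markers of CD8 T and NK cells, of which 12 had a log2 fold change below 0. Without Nkg7 the other 12 markers added up to 276 and 273 CPM in wild type and 243 and 247 CPM in the knockout. Most of each sum was Ctsw, at 211 and 206 CPM in wild type and 188 and 205 CPM in the knockout. Cd8b1 stood at 24.6 and 21.7 CPM against 16.3 and 14.97 CPM, Klrb1c at 5.34 and 5.08 CPM against 2.99 and 1.86 CPM, and Cd8a at 0.06 to 0.75 CPM in all 4 libraries. The part of such cells in the fall of Nkg7 was not tested.

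Il1rl1, the receptor ST2 for interleukin 33, was the only effector gene called higher. It stood at 17.2 and 16.7 CPM in wild type and at 27.4 and 28.8 CPM in the knockout (0.73, SE 0.13, adjusted p = 0.0465), and without wild-type library 1 and 2 its adjusted p was 0.149 and 0.181. Klrg1, a marker of terminal effector Tregs, stood at 45.8 CPM in both wild-type libraries and at 27.7 and 35.0 CPM in the knockout (−0.55, SE 0.14, adjusted p = 0.123). Without 1 knockout library at a time, 6 effector genes were called higher and 11 lower (library 1 left out) or 5 and 12 (library 2 left out).

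Other lists of T cell biology held few calls, beside a called share of 1.37% over all genes tested. Early antigen receptor response genes held 0 calls by edgeR among 25 tested (6 at an unadjusted p under 0.05, 3 by DESeq2, 1 by limma-voom). Their median was 0.06, and 12 had genotypes without overlap, beside 46.4% of all genes tested. Of 24 genes of the interleukin 2 and STAT5 response, 2 rose, Socs2 and Bcl2, with a median of 0.08. Chemokine receptors (20 tested) and genes of resting, recirculating cells (22) each held 1 fall, Ccr9. Conventional CD4 T cell genes held 0 calls by edgeR among 12 (5 at an unadjusted p under 0.05; 3 by DESeq2, 1 by limma-voom). These numbers grew when 1 knockout library set the comparison. Without knockout library 1 and 2, the early response genes held 4 and 6 calls higher and 3 and 1 lower, and the genes of resting cells held 8 and 6 higher and 4 in each fit lower. Chemokine receptors held 6 and 4 higher and 5 and 4 lower, interleukin 2 response genes 6 and 8 higher and 5 and 1 lower, and conventional CD4 genes 3 in each fit higher and 4 and 2 lower.

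Many genes of cell division fell in the knockout. Of 51 genes of G2/M and mitosis, 20 fell and 0 rose, the median log2 fold change was −1.20 and 49 lay below 0, the exceptions being Smc4 and Pttg1. Of 38 DNA replication genes, 5 fell (Tk1, Rfc5, Tyms, Gins1 and Gins2), the median was −0.74 and all 38 lay below 0. G1 cyclins, E2Fs and CDK inhibitors held 0 calls by edgeR among 23 (12 at an unadjusted p under 0.05; 3 by DESeq2, 0 by limma-voom), with a median of −0.26, and 11 and 7 calls lower without knockout library 1 and 2. Beside them, the share called lower among all genes was 0.758%, and the median was 0.00.

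Mki67, the proliferation antigen Ki-67, stood at 80.1 and 91.7 CPM in wild type and at 44.3 and 30.5 CPM in the knockout (−1.20, SE 0.18, adjusted p = 0.0315). Ccna2, the cyclin of S phase and G2, fell from 62.6 and 66.1 CPM to 26.6 and 13.2 CPM (−1.69, SE 0.28, adjusted p = 0.0366). Cdc20, an activator of the anaphase-promoting complex, fell from 67.6 and 67.3 CPM to 33.7 and 25.3 CPM (−1.19, SE 0.15, adjusted p = 0.0196). In all of them the 2 knockout libraries lay below wild type and knockout library 2 lay lowest.

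Mitotic cyclins and kinases were among these falls. Ccnb1 fell from 24.2 and 26.4 CPM to 11.5 and 5.996 CPM (−1.52, SE 0.27, adjusted p = 0.0469). Plk1, a kinase of spindle assembly, fell from 44.3 and 51.6 CPM to 22.5 and 14.9 CPM (−1.36, SE 0.20, adjusted p = 0.0298). Ube2c, the ubiquitin-conjugating enzyme that serves cyclin destruction, fell from 43.6 and 50.1 CPM to 21.0 and 13.4 CPM (−1.44, SE 0.21, adjusted p = 0.0298). All of them were lowest in knockout library 2. Tyms, which makes thymidylate for DNA synthesis, fell from 67.6 and 75.8 CPM to 45.4 and 36.04 CPM (−0.82, SE 0.14, adjusted p = 0.0444), and without wild-type library 2 its adjusted p was 0.0721. Without the same library Gins1 and Cdkn3 had adjusted p-values of 0.126 and 0.0542, and Rfc5 had 0.151 and 0.0982 without wild-type library 1 and 2.

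The size of the drop differed between the 2 knockout libraries. Over the 51 mitotic genes, the median log2 ratio to the wild-type mean was −0.09 and 0.09 in the wild-type libraries, −0.86 in knockout library 1 and −1.48 in knockout library 2. For the 38 replication genes it was −0.04 and 0.04, then −0.55 and −0.996. Knockout library 2 lay below knockout library 1 for 46 of the 51 and 36 of the 38 genes. The number of mitotic genes called lower was 37 and 34 without wild-type library 1 and 2, and 48 and 44 without knockout library 1 and 2. For replication genes these numbers were 17, 12, 38 and 33.

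**Figure D3:**
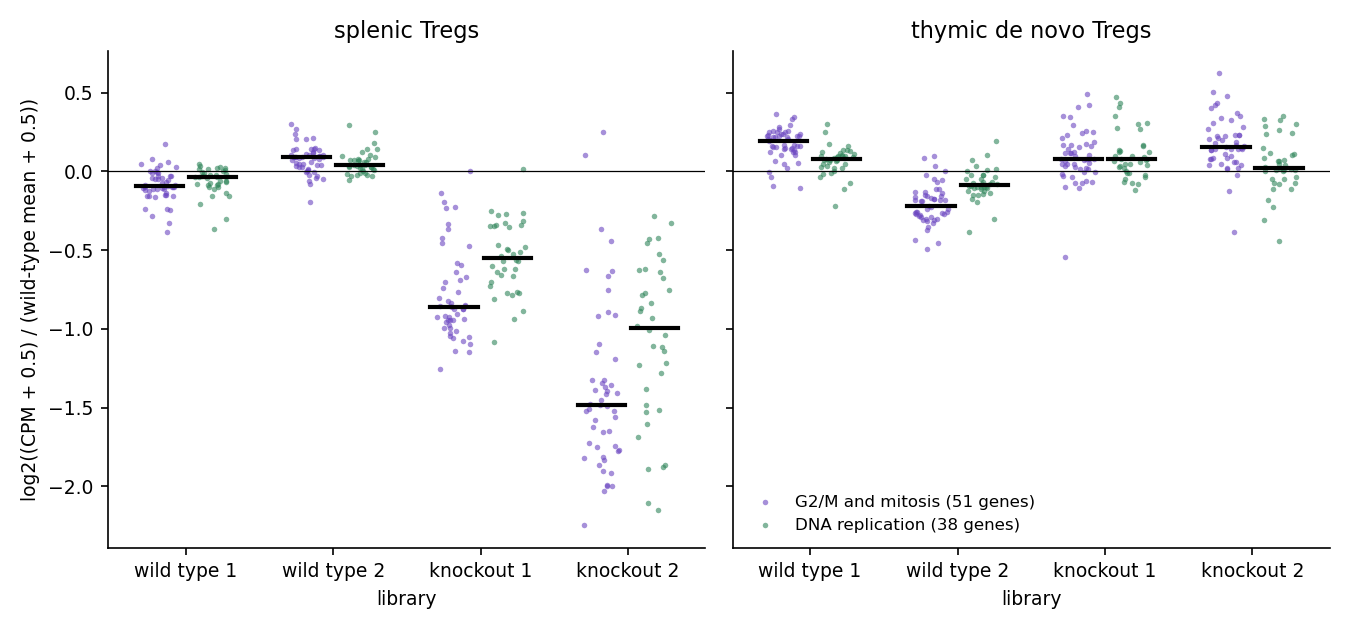
Log2 ratio of each gene's level in a library to the mean of the 2 wild-type libraries of its tissue (vertical axis, with 0.5 CPM added to both) for splenic Tregs (left) and thymic de novo Tregs (right); points are genes and black bars medians. In spleen both knockout libraries lie below wild type, knockout 2 (median −1.48 for mitotic genes) further than knockout 1 (−0.86), while in de novo Tregs the knockout medians are 0.08 and 0.15.

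Of 22 glycolysis genes, 1 fell, Tpi1 (triose phosphate isomerase), from 186 and 192 CPM to 128 and 117 CPM (−0.63, SE 0.10, adjusted p = 0.0350), and the median was −0.17 with 18 below 0. Without wild-type library 1 and 2 the adjusted p of Tpi1 was 0.117 and 0.163, and without knockout library 1 and 2 the list held 7 and 4 falls. Cytosolic ribosomal proteins held 0 calls by edgeR, DESeq2 and limma-voom among 82 (7 at an unadjusted p under 0.05), with a median of −0.10, and without knockout library 2 they held 27 calls lower. Nuclear genes of the respiratory chain held 0 calls by the same tools among 86 (6 at an unadjusted p under 0.05), with a median of −0.12, and 33 calls lower without knockout library 2.

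Among genes that averaged 5 CPM or more in the knockout, those that rose furthest began from low levels; Spp1, Fam159b and Fhad1 had higher fitted values below that level. Obp2a, a lipocalin, stood at 0.630 and 0.523 CPM in wild type and 4.55 and 5.78 CPM in the knockout (3.16, SE 0.36, adjusted p = 0.0140). Igfbp7, a secreted binder of insulin-like growth factors, rose from 3.27 and 3.43 CPM to 16.8 and 15.2 CPM (2.26, SE 0.18, adjusted p = 0.00325). Wnt10a rose from 6.03 and 4.18 CPM to 20.6 and 25.1 CPM (2.16, SE 0.21, adjusted p = 0.00904), the opposite direction to Wnt3. These were the 2 calls among 27 tested genes of the Wnt pathway, whose median was 0.25; without knockout library 1 and 2 the list held 4 and 2 calls higher and 3 and 4 lower.

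Ifitm3, an interferon-induced membrane protein that restricts virus entry, stood at 12.98 and 11.07 CPM in wild type and at 47.3 and 41.8 CPM in the knockout (1.89, SE 0.15, adjusted p = 0.00316). It was the 1 call among the 6 tested Ifitm genes. Among 36 interferon response genes, 1 rose, Oas2 (9.92 and 8.42 CPM against 22.2 and 20.3 CPM; 1.21, SE 0.16, adjusted p = 0.0211), the median was 0.15 and 32 lay above 0. Genotypes did not overlap for 15 of the 36, beside 46.4% of all genes. The calls in this list, all higher, numbered 6 without wild-type library 1, 10 without knockout library 1 and 8 without knockout library 2.

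Myo3b, an unconventional myosin, rose from 15.2 and 15.3 CPM to 54.4 and 48.7 CPM (1.76, SE 0.13, adjusted p = 0.00284). Naip5, a cytosolic sensor of bacterial flagellin, rose from 10.97 and 8.19 CPM to 35.2 and 34.1 CPM (1.86, SE 0.17, adjusted p = 0.00570), and its neighbour Naip6 from 5.67 and 4.13 CPM to 18.5 and 13.2 CPM (1.70, SE 0.24, adjusted p = 0.0290). Naip genes are similar copies, so reads may be shared between them and their separate values are uncertain. Both genes lay apart from wild type in both knockout libraries, which was a condition for naming them among the largest rises.

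The heat shock genes Hspa1a and Hspa1b, a nearly identical pair, rose by 2.21 and 2.35 (SE 0.39 and 0.33; adjusted p = 0.0442 and 0.0290). Hspa1b stood at 6.12 and 8.37 CPM in wild type and 49.5 and 24.2 CPM in the knockout. The pair made up the 2 calls among 12 dissociation and heat shock genes, whose median was −0.08; without wild-type library 1 the list held 4 calls higher, and without knockout library 1 it held 2 higher and 4 lower. Handling of cells during dissociation and sorting is known to induce both genes, and the part of handling was not tested.

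Several genes of the major histocompatibility complex class II pathway and of B cells were among the rises. Cd74, the invariant chain that escorts class II molecules and a known NF-kB target, stood at 192 and 221 CPM in wild type and 532 and 423 CPM in the knockout (1.21, SE 0.13, adjusted p = 0.0130). H2-Oa, a chain of the class II modulator H2-O, rose from 20.4 and 20.3 CPM to 36.3 and 42.8 CPM (0.96, SE 0.13, adjusted p = 0.0290). Neither gene overlapped between the genotypes. Cd79b, a signal chain of the B cell receptor, rose from 33.6 and 36.4 CPM to 56.4 and 54.3 CPM (0.66, SE 0.11, adjusted p = 0.0435), with 0.267 and 0.111 without wild-type library 1 and 2. Fcmr, an Fc receptor for immunoglobulin M, rose from 6.42 and 5.81 CPM to 23.5 and 17.4 CPM (1.74, SE 0.19, adjusted p = 0.0130). All 4 were high in both knockout libraries.

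Of the 13 tested markers of B and plasma cells 1 was called, Cd79b, and 11 lay above 0. The median was 0.90, and 4 had genotypes without overlap, beside 46.4% of all genes tested. Added up, the 14 markers read, 1 of them too low to test, came to 281 and 288 CPM in wild type and to 381 and 310 CPM in the knockout. Most of that was Xbp1, which other cells express too; without it the sums were 47.6 and 60.5 CPM against 119 and 67.4 CPM. Markers called higher numbered 0 and 2 without wild-type library 1 and 2, and 1 and 7 without knockout library 1 and 2. The defining marker Ms4a1 stood at 5.23 CPM in knockout library 1 and at 0.03 CPM, under the floor of 3 counts, in knockout library 2. The class II chains H2-Ab1 and H2-Aa were likewise high in knockout library 1 and low in knockout library 2: H2-Ab1 stood at 12.6 and 23.996 CPM in wild type and at 41.5 and 2.67 CPM in knockout libraries 1 and 2, and neither was called. Cd74, H2-Oa, Cd79b and Fcmr were raised in both knockout libraries, as was every gene called higher. The part of B cells in these rises was not tested. H2-Oa and the list of 10 class II genes, of which 2 rose with a median of 0.35, were chosen after their values were seen; without knockout library 1 the list held 2 called higher and 4 lower, and without knockout library 2 it held 7 and 0.

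**Figure D4:**
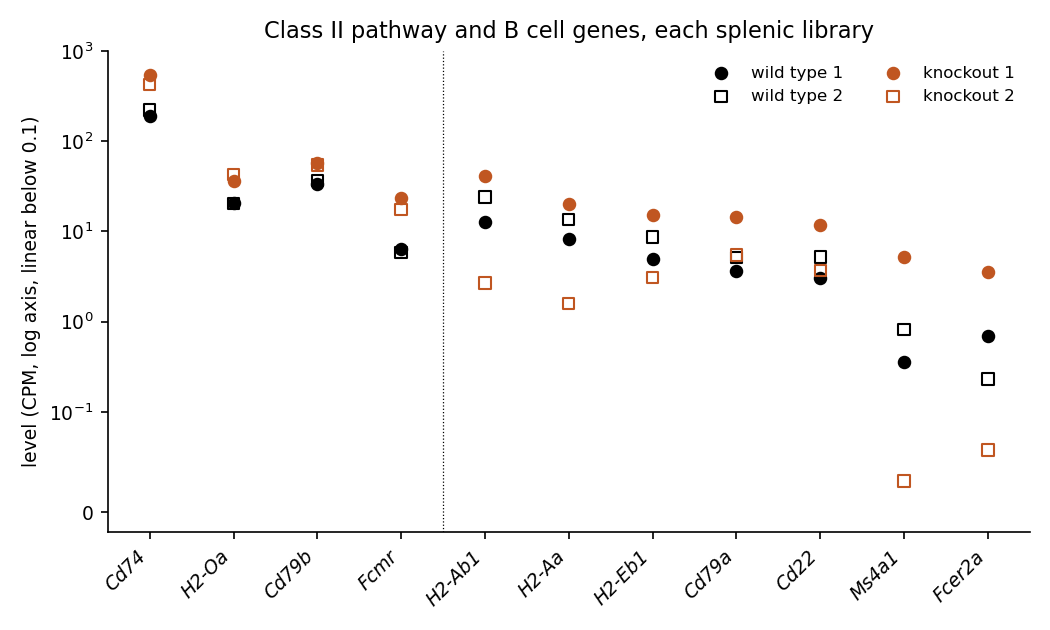
Level in each splenic library (vertical axis, CPM, log scale that is linear below 0.1) of the 4 called genes of the class II pathway and B cells (left of the dotted line) and of 7 that were not called (right). The called genes are high in both knockout libraries, as was every gene called higher. Ms4a1, H2-Ab1 and H2-Aa are highest in knockout 1 and lowest in knockout 2, and the part of B cells was not tested.

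The effect of c-Rel loss was set beside that in de novo Tregs of the thymus, which shared no library with the splenic comparison. De novo Tregs had 346 genes called higher (2.92% of 11855) and 420 called lower (3.54%). Of the 93 genes that fell in spleen, 34 also fell in de novo Tregs (36.6% of the splenic and 8.10% of the de novo list) and 3 rose there. Of the 75 that rose in spleen, 36 also rose (48.0% and 10.4%) and 3 fell. The difference between the tissues was tested as an interaction, which called 134 of 12532 genes (1.07%), 71 with a higher (0.567%) and 63 with a lower (0.503%) effect in spleen. That number was 21 to 69 when 1 wild-type splenic or 1 de novo library was left out, 462 without splenic knockout library 1 and 171 without splenic knockout library 2. Tissue coincides with count table, so the stage and the preparation of the libraries cannot be told apart.

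Lad1, Wnt3, Colq and Ncf1 fell in both. In de novo Tregs their log2 fold changes were −4.30, −4.53, −2.32 and −1.89, and the interaction called none of them (adjusted p = 0.269, 0.991, 0.908 and 0.931). Wnt10a, Ifitm3 and Cd74 rose in both, by 2.504, 1.89 and 1.32 in de novo Tregs, with interaction values of −0.33 (SE 0.26), 0.01 (SE 0.18) and −0.09 (SE 0.18).

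Genes of the cell cycle differed between the tissues. The 25 members of the mitotic and replication lists that fell in spleen had a median log2 fold change of −1.20 there and 0.14 in de novo Tregs, where 0 of them fell and 1 rose (Kif22). These members were chosen for their fall in spleen, so their number with an interaction is no test. Over the whole lists the interaction called a lower effect in spleen for 18 of 51 mitotic and 5 of 38 replication genes, beside 0.503% of all genes tested. Mki67 stood at 65.3 and 63.5 CPM in wild-type and 63.6 and 73.4 CPM in knockout de novo Tregs, with an interaction of −1.28 (SE 0.22, adjusted p = 0.0282), and Kif22, a mitotic kinesin, had one of −1.45 (SE 0.16, adjusted p = 0.00357). These calls rest on the full set of libraries: the 63 genes with a lower effect in spleen became 3 to 6 when either wild-type splenic library, wild-type de novo library 2 or either knockout de novo library was left out. They became 32 without wild-type de novo library 1.

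Effector Treg genes differed the other way. Of 31 tested in de novo Tregs 22 fell and 0 rose, beside 3.54% and 2.92% of all genes there. Their median was −1.05, against 3 falls and a median of −0.08 in spleen. The interaction called 12 of the list, all with a higher effect in spleen, beside 0.567% of all genes. These calls too rest on the full set of libraries. Over all genes, fewer were called with a higher effect when any wild-type splenic or any de novo library was left out. Nkg7 stood at 166 and 162 CPM in wild-type and 23.1 and 21.3 CPM in knockout de novo Tregs, a fall of 2.88 against 1.03 in spleen (interaction 1.86, SE 0.14, adjusted p = 0.000451). Il1r2 fell by 3.11 there (interaction 1.67, SE 0.17, adjusted p = 0.00202). The survival gene Bcl2l1 fell by 1.94 (interaction 1.20, SE 0.15, adjusted p = 0.00580), and Cd83 by 1.93 (1.43, SE 0.11, adjusted p = 0.000451). The splenic falls of these 4 genes were smaller than the thymic ones.

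Several genes that fell in de novo Tregs did not fall in spleen. Itgae (CD103), an integrin of tissue-resident T cells, stood at 96.0 and 75.2 CPM in wild-type and 168 and 127 CPM in knockout splenic Tregs (0.79, SE 0.17, adjusted p = 0.0728), and fell by 2.18 in de novo Tregs (interaction 2.97, SE 0.28, adjusted p = 0.00118). Fgl2, a secreted suppressive factor of Tregs, stood at 21.7 and 27.4 CPM and at 25.4 and 26.0 CPM in spleen and fell by 2.48 in de novo Tregs (2.55, SE 0.24, adjusted p = 0.00118). Il1rl1, which rose in spleen, fell by 1.51 in de novo Tregs (2.25, SE 0.30, adjusted p = 0.00831).

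**Figure D5:**
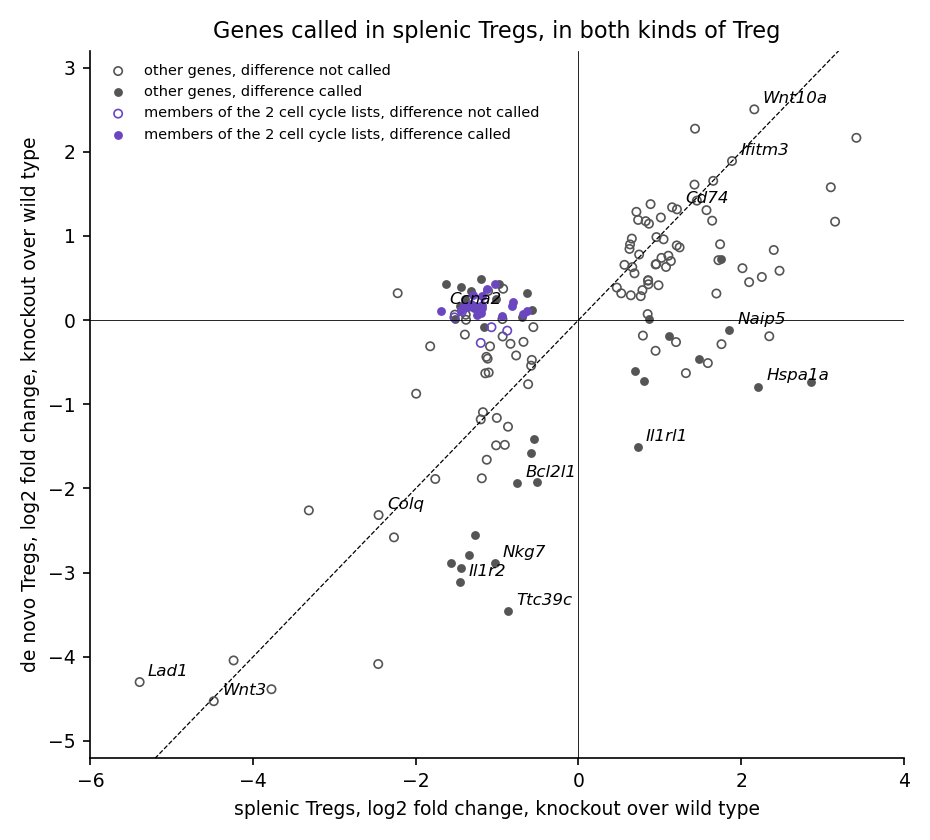
Log2 fold change of knockout over wild type in splenic (horizontal axis) and in de novo Tregs (vertical axis) for 161 genes called in spleen and tested in both; filled symbols are genes whose difference was called, purple symbols members of the cell cycle lists, and the dashed line marks equal change. Wnt3, Colq and Ifitm3 lie near the line, and Lad1 lies off it (−5.39 in spleen, −4.30 in de novo Tregs), its difference not called. Cell cycle genes lie near 0 on the vertical axis, and 3 genes (Hist1h4m, Pkd1l1 and Mpo) lie outside the axes.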

How the data were processed

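RNA sequencing libraries of splenic Tregs (2 wild-type, 2 knockout) and, for comparison, de novo Tregs (2 and 2) were analysed as the raw counts per gene that the authors deposited, with no normalization. The submitters' processing notes name STAR 2.5.2, Picard 2.9.0, Subread 1.5.2, featureCounts, limma, FastQC, MultiQC and GRCm38; annotation release and strandedness were not given in the sources used here. Groups follow the sample titles, and 0 per-sample columns were left out.

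In R 4.3.3, edgeR 4.0.16 was run on the 4 splenic libraries with TMM factors, after filterByExpr (min.total.count 15, min.count 10), using its quasi-likelihood F-test, with Benjamini-Hochberg adjustment over all 12264 genes and calls at an adjusted p under 0.05. Fold changes (log2, knockout over wild type) carry a standard error (SE) derived from that test. It is the absolute log2 fold change divided by the square root of the F statistic. The interaction used all 8 libraries. In spleen the common biological coefficient of variation came to 0.131. The script was tested on simulated counts. Lower bounds set the wild-type mean against a floor of 3 counts per library and cover counting error only.

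Named genes are Rel, up to 15 called genes with the largest fall and 15 with the largest rise (the higher group averaging 5 CPM or more, no overlap, no bare gene models), up to 6 called members per list, a fixed set of Treg and NF-kB genes and up to 10 genes of the interaction. Sdc4, H2-Oa, Ndc80, the called genes under 5 CPM, the genes given as references within a list (Mcl1, Csf1r, Lyz2, Ms4a1 and the like) and those of the last observations were chosen outside that rule. Members and lists were chosen with earlier results of these data known. Gene positions come from GENCODE vM21 and promoters from RefSeq (GRCm38.p6); neither genome nor protein sequences were used here. Alternatives were other scalings and filters, DESeq2 1.42.0, limma-voom (limma 3.58.1), a replicate block, a spread shared with the de novo libraries and leaving out each library. The values of 2 genes among the lists are not reported here.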

Additional observations from a re-analysis of the deposited data

Results flagged for a closer look

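These genes had an effect of c-Rel loss that differed between splenic and de novo Tregs by the interaction test of edgeR over 8 libraries. Values are the splenic minus the de novo log2 fold change, at an adjusted p under 0.05, beside 1.07% of all genes tested.

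Division genes had a more negative effect in spleen: Ccna2 (−1.79, SE 0.35), Pbk (−2.05, SE 0.31), Ube2c (−1.55, SE 0.28), Cep55 (−1.52, SE 0.26), Plk1 (−1.51, SE 0.29), Cdc20 (−1.32, SE 0.26), Ccnb2 (−1.30, SE 0.24), Mad2l1 (−0.97, SE 0.16), Tyms (−0.98, SE 0.19) and Rfc5 (−0.74, SE 0.13). Mki67 and Kif22, at −1.28 and −1.45, were given above. Tpi1, a glycolytic enzyme, fell by 0.63 in spleen and rose by 0.32 in de novo Tregs, a difference of −0.94 (SE 0.13). Pdlim4, a cytoskeletal adaptor, was not called in spleen (−1.003) and rose by 1.44 in de novo Tregs, a difference of −2.44 (SE 0.39). The value of Mpo, −9.22, depends on the prior count of the fit, because both splenic knockout libraries held 0 counts.

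Of the genes that fell in spleen, 11 fell further in de novo Tregs. These were Bcl2a1d (1.34, SE 0.22), Tnfrsf8 (1.52, SE 0.26) and Ttc39c (2.60, SE 0.29), beside Bcl2l1 (1.20), Cd83 (1.43), Il1r2 (1.67) and Nkg7 (1.86), and, outside the naming rule, Sdc4 (1.46), Cd82 (1.00), St8sia6 (0.88) and Tg (1.29). Ttc39c fell in spleen from 23.8 and 26.4 CPM to 13.4 and 14.1 CPM, and without wild-type library 2 its adjusted p was 0.0999. Klrg1 (difference 3.06, SE 0.41), Itgae (2.97), Wisp1 (2.86), Fgl2 (2.55), Il9r (2.38) and Gpr15 (2.35), a homing receptor of the colon, fell in de novo Tregs and were not called in spleen.

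Of the genes that rose in spleen, 11 had a higher effect there than in de novo Tregs. Myo3b rose in both tissues (difference 1.04, SE 0.20). Naip5 (1.98, SE 0.31) and Hspa1a (3.01, SE 0.51) rose in spleen and were not called in de novo Tregs. Il1rl1 (2.25) rose in spleen and fell in de novo Tregs. Outside the naming rule, Axl (1.55) and Ahnak (1.32) also fell in de novo Tregs, and Gpm6b (1.95), Zfp36l2 (1.32), Txnip (0.87) and Gm3164 (3.60) were not called there. Fhad1 was too low to be tested in de novo Tregs alone.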

How the results depend on the processing

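All 168 calls held under RLE and upper-quartile factors, 167 at min.count 50 and 164 by limma-voom, with no sign change. Their number moved from 168 to 475 with no filter on low counts, 526 by DESeq2, 361 with the replicate block and 496 with the shared spread; it ranged from 220 to 2508 without 1 library. The interaction count moved from 134 to 381 with no filter and 310 by DESeq2, was 100 with the replicate block, and ranged from 21 to 462 without 1 library. Called list members moved from 63 to 148 with no filter, 154 by DESeq2, 130 with the replicate block and 134 with the shared spread, and ranged from 86 to 313 without 1 library. Deviations of same-numbered libraries had a correlation of −0.136. It rests on a single difference between libraries in each genotype, so it cannot show whether the numbers pair the libraries. A crossed replicate block, added after seeing the data, gave 803 calls and 197 among list members. With a looser motif (3 G, any 5 bases, then 2 C) the share among genes that fell and had a promoter was 65.3%, against 6.94%. Counting genes with a promoter, that looser motif occurred in 66.2% of the genes tested and in 63.3% of those that rose.

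Of 59 called named genes, 45 were called under every alternative run, and 14 lost the call under at least 1: 7 without wild-type library 1, 13 without wild-type library 2, Il1rl1 with the shared spread and Mpo by limma-voom. Signs turned only for genes not called; over the fits without 1 library the values ranged from −0.12 (without knockout library 1) to 0.31 for Foxp3, −0.097 (knockout 1) to 0.52 for Il2ra, −0.10 (knockout 2) to 0.21 for Nfkb1, −0.031 (knockout 1; −0.023 without wild-type library 2) to 0.045 for Rela, −0.089 (wild type 1) to 0.24 for Fgl2, −0.019 (knockout 2) to 0.52 for Il9r and −0.15 (knockout 2) to 0.20 for Gpr15. The causes were not tested. With 2 libraries a group, a gene that missed the threshold is not shown to be alike in both genotypes.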

Other observations

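Further genes outside the naming rule were chosen after their values were seen. A cluster of related gene models on chromosome 14, between 3049285 and 7568566 of GRCm38, was higher in knockout splenic Tregs. Of its 26 models tested, 6 rose, beside 0.612% of all genes, and the median log2 fold change was 1.95. All 26 lay above 0 with no overlap between genotypes, which 46.4% of all genes tested also lacked. Added up, they came to 45.3 and 36.3 CPM in wild type and 104 and 116 CPM in the knockout. In de novo Tregs 21 of 22 tested lay above 0 and 5 were called, with a median of 0.84, and the sum was 58.1 and 63.3 CPM against 93.9 and 109 CPM. These models are many similar copies that can share reads, so they are not independent and their separate values are uncertain.

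Tnnt2, cardiac troponin T and a neighbour of Lad1, fell in both knockout libraries, from 1.80 and 1.92 CPM to 0.199 and 0.0621 CPM (log2 fold change −3.77, SE 0.66, adjusted p = 0.0446), and its de novo value was −4.38. The level of Tnnt2 in knockout library 2 was under the floor of 3 counts. Of 7 tested genes in a list built around Lad1, Lad1 and Tnnt2 were called, beside 1.37% of all genes tested. Lad1 was already called when the list was made, so its call there adds nothing.

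Tetraspanins, which organize receptors in the membrane, held 3 falls among 17 tested: Cd81 (266 and 267 CPM to 178 and 180 CPM), Cd82 (734 and 718 CPM to 439 and 529 CPM) and Tspan3 (80.6 and 82.0 CPM to 33.5 and 47.1 CPM). Without wild-type library 1 and 2 the adjusted p was 0.195 and 0.188 for Cd81 and 0.139 and 0.0831 for Cd82. The median of the 17 was −0.12, and the falls numbered 1 without either wild-type library and 5 without either knockout library.

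Dusp1, a phosphatase of MAP kinases, rose from 171 and 111 CPM to 324 in both knockout libraries (1.20, SE 0.18, adjusted p = 0.0317). Zfp36l2, an RNA-binding protein that destabilizes transcripts, rose from 218 and 153 CPM to 394 and 413 CPM (1.12, SE 0.16, adjusted p = 0.0290), and Txnip, an inhibitor of thioredoxin and glucose uptake, from 677 and 517 CPM to 1094.8 and 1082.2 CPM (0.87, SE 0.13, adjusted p = 0.0298). Dusp1 is also induced by cell handling, whose part was not tested.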
